A study of Homo sapiens with 6 samples.

Results

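The RNAs described here are 8 well-known long noncoding RNAs, MALAT1, NEAT1, KCNQ1OT1, TUG1, PVT1, CRNDE, LINC00657 and OIP5-AS1, chosen by symbol from the 23013 genes with values in an ORC1 RNA immunoprecipitation experiment. ORC1 is a subunit of the origin recognition complex, which marks the sites where DNA replication starts. Native RIP-seq, in which a protein is pulled down without crosslinking and the RNA that accompanies it is sequenced, was performed on nuclei of untreated, asynchronous HCT116 cells, a human colorectal cancer line. The 6 libraries comprised 3 inputs of nuclear RNA, taken without antibody, and 3 ORC1 IPs obtained with an anti-ORC1 antibody, 1 of each per RIP replicate. All libraries came from the same unmodified cell line, and no IgG library was analysed here. Values are normalised counts, that is reads per gene divided by 1 size factor per library.

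Long noncoding RNAs act as RNA without being translated, and where they sit in the cell is part of what they do. MALAT1 accumulates in nuclear speckles, where splicing factors are stored, and NEAT1 is the scaffold of paraspeckles. KCNQ1OT1 stays at its own locus and silences imprinted neighbours, TUG1, PVT1 and CRNDE have been linked to gene regulation and to cancer, whereas LINC00657 (NORAD) and OIP5-AS1 (the human counterpart of cyrano) are known for roles in the cytoplasm. LINC00657 in particular sequesters Pumilio proteins through repeated copies of a short recognition element.

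Because LINC00657 is defined by these elements, they are shown here from GENCODE v44 (GRCh38), read from its single-exon transcript of 5401 nucleotides (ENSG00000260032, chr20:36045618-36051018, minus strand). The element was searched as TGTANATA on the RNA strand only. LINC00657 held 15 copies, of which 10 read TGTATATA, 4 read TGTAAATA and 1 read TGTACATA. The lines below give 5 of them with the element in capitals, chosen to show each form of the element and the span they cover along the RNA.
LINC00657 element 1, chr20:36050185-36050208: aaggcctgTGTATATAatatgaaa
LINC00657 element 3, chr20:36049705-36049728: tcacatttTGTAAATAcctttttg
LINC00657 element 5, chr20:36049495-36049518: gtatatagTGTACATAaaggacag
LINC00657 element 11, chr20:36047974-36047997: ccctactgTGTATATAgcggacaa
LINC00657 element 15, chr20:36046347-36046370: agcctattTGTAAATAcctttgtt

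The element occurred at least once in 29.2% of the 16062 tested genes with a matching transcript, but only 6 genes held 10 or more. LINC00657 was the second-ranked of these with 15 copies, after LNPEP with 17 in a transcript of 12134 nucleotides. Per length, LINC00657 carried 2.78 elements per kb. The other 7 RNAs carried fewer, with 9 in KCNQ1OT1, 6 in NEAT1, 2 in TUG1, 1 in OIP5-AS1 and 0 in MALAT1, PVT1 and CRNDE. The largest density among those 7 was 0.268 per kb, in TUG1.

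**Figure D1:**
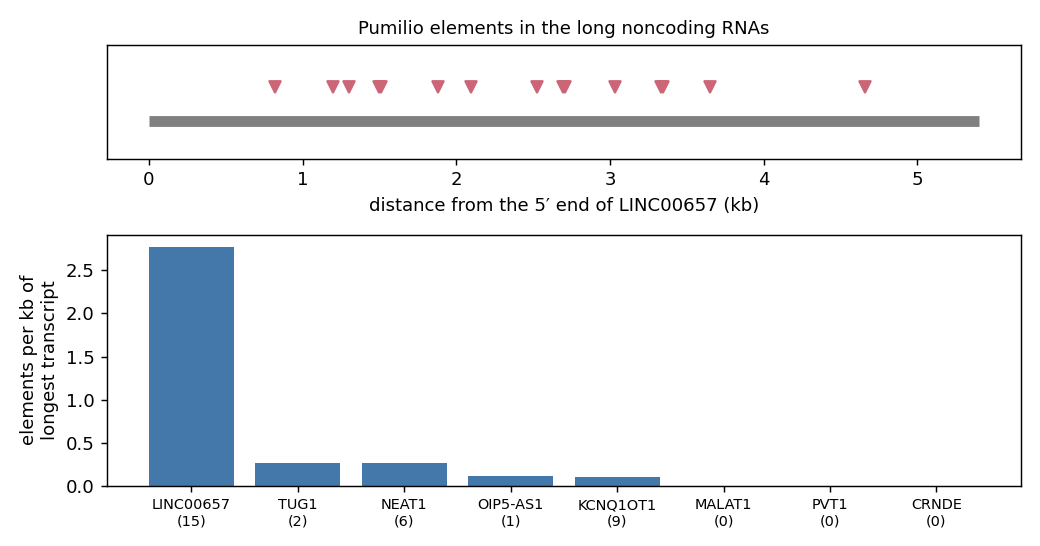
The upper panel marks with triangles the 15 Pumilio elements (TGTANATA) along LINC00657 by distance from its 5′ end in kb, and the lower panel gives elements per kb of the longest annotated transcript as bars, with the number of elements in brackets. LINC00657 stands at 2.78 per kb and the other RNAs at 0.268 or less.

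Tandem GAA repeats, which the study examined in RNAs that came down with ORC1, were searched as GAAGAAGAA on the RNA strand. The study found its GAA motif by a search for enriched sequences and not as this exact run. The shares below therefore cannot be set beside those it reported. Of the transcripts of tested genes, 12.9% held this run. Among the 8 long noncoding RNAs only NEAT1 and KCNQ1OT1 did, with 1 copy each, shown with the run in capitals. On the other strand the run reads TTCTTCTTC, which 4.84% of transcripts held, among the 8 only KCNQ1OT1, with 1 copy.
NEAT1, chr11:65427877-65427901, plus strand: ggcatgctGAAGAAGAAttgattca
KCNQ1OT1, chr11:2657164-2657188, minus strand: atattcttGAAGAAGAAcaaggtgg
Both are among the longest transcripts in the table, NEAT1 at 22743 and KCNQ1OT1 at 91667 nucleotides against a median of 3283 for tested genes.

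Depth and library quality bear on what follows. Recovered reads on genes ranged from 13703033 to 17248924 in inputs and from 25134156 to 36008733 in ORC1 IPs. RNA of the mitochondrial genome, which lies outside the nucleus, took 1.49 to 3.28% of the normalised counts of inputs, 0.617% in IP 1, 6.0% in IP 2 and 0.257% in IP 3. IP 2 was the highest of the 6 libraries for 6 of the 8 long noncoding RNAs, compared with 22.9% of the 16513 tested genes, and the part of the library's composition in this was not tested. Epithelial markers were present in every library (EPCAM at 1656 to 4516 normalised counts). The 7 with values summed to 49889 to 139970 in inputs and to 146189, 17996 and 71584 in IPs 1, 2 and 3. The sum of IP 2 thus lay below every other library, and KRT8, KRT18 and KRT19 made up most of each sum. CLDN3 (109 in IP 2, 65.6 in IP 1) and CLDN4 (1314 and 1207) were not lowest in IP 2, whereas the other markers were. Of 14 markers of other cell types 6 had values, with CD14, GFAP and ALB at 6.97 or less in every library and COL1A1, a fibroblast collagen gene, at 161 to 787. The summed level of those 6 markers was 191 to 347 in inputs and 467 to 862 in ORC1 IPs, and COL1A1 made up most of it. The other 5 summed to 29.9 to 80.7 in inputs and 35.7 to 74.5 in IPs, which overlap.

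None of the 8 long noncoding RNAs passed the test between ORC1 IP and input. With limma on log2(normalised count + 1) and an adjusted p under 0.05, 0 were higher and 0 were lower, against 2.28% and 1.42% of all tested genes (376 and 234 of 16513). At an unadjusted p under 0.05 there was 1 of 8, TUG1, against 21.6% of all tested genes. On the recovered reads edgeR and DESeq2 also called 0 of 8. Over the 16513 tested genes edgeR called 425 higher and 216 lower, and DESeq2 1266 and 718. The limma log2 fold changes of the 8 RNAs ran from -0.63 for NEAT1 to 1.24 for TUG1. Their median was 0.13 beside 0.01 for all tested genes, and 5 of 8 were positive compared with 50.7% of tested genes. Without IP 2 the counts over all genes changed to 1965 higher and 1053 lower, and 1 long noncoding RNA, NEAT1, passed as lower.

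**Figure D2:**
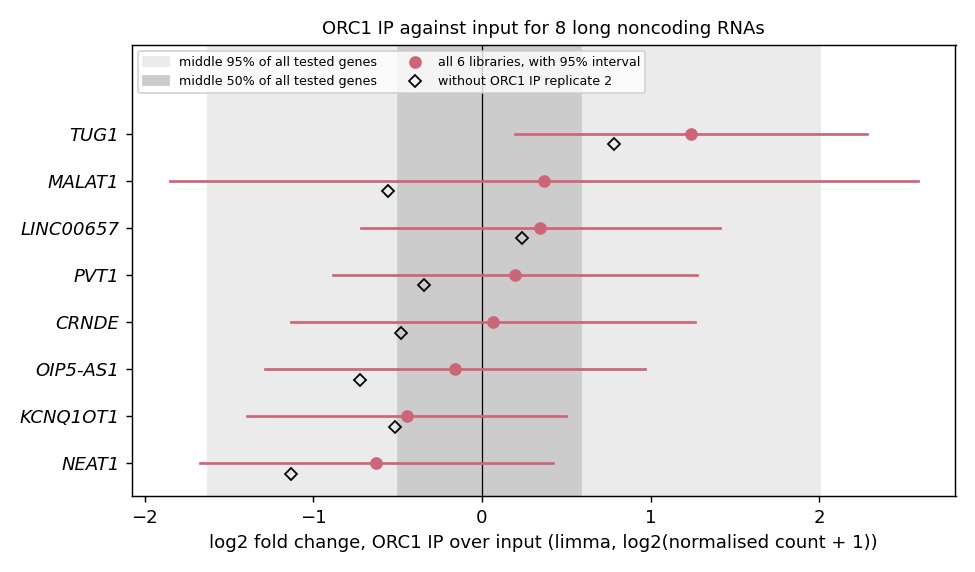
Log2 fold change of ORC1 IP over input for each long noncoding RNA, on the log2(normalised count + 1) scale, where filled circles and bars are the limma estimates with 95% intervals from all 6 libraries, open diamonds the estimates without IP 2, and the grey bands hold the middle 50% and 95% of tested genes. Only the interval of TUG1, 0.20 to 2.28, lies above 0.

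MALAT1 (ENSG00000251562, chr11:65497640-65508073, plus strand, 1 exon of 10434 nucleotides) was the most abundant of the 8. It had 32372, 35633 and 13703 normalised counts in inputs 1, 2 and 3, and 27277, 116695 and 10644 in IPs 1, 2 and 3. The ORC1 IPs thus held both the highest and the lowest of the 6 values, and the groups overlapped. MALAT1 ranked 20, 38 and 131 among all genes of the inputs, and 141, 3 and 394 in the IPs. Its log2 fold change was 0.37 ± 1.02 (SE, n = 3 per group, limma adjusted p = 0.875), with a 95% interval from -1.85 to 2.59. The residual SD behind this error was larger than that of 97.5% of tested genes. The estimate fell below 0 without input 3 (-0.07) or without IP 2 (-0.56).

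The study used MALAT1 to normalise RT-qPCR of nuclear extracts, and its primers are shown because they locate that assay on the RNA.
MALAT1 forward primer, chr11:65499299-65499318: GACGGAGGTTGAGATGAAGC
MALAT1 reverse primer, antisense to chr11:65499363-65499382: ATTCGGGGCTCTGTAGTCCT
The amplicon of 84 bases begins at position 1660 of the transcript. Across the sequenced libraries the normalised count of the whole gene spanned 2.60-fold among inputs and 11.0-fold among ORC1 IPs. An antisense transcript, TALAM1, overlaps 8121 exon bases of MALAT1 on the opposite strand and is not in the table. The sources used here do not say whether the counting used strand, so reads of the pair cannot be told apart.

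NEAT1 (ENSG00000245532, chr11:65422774-65445540, plus strand), whose gene lies next to MALAT1, had 3742, 3838 and 2391 normalised counts in the inputs and 1505, 4229 and 1462 in the ORC1 IPs. IPs 1 and 3 lay below every input and IP 2 lay above them, so the groups overlapped. The log2 fold change was -0.63 ± 0.48 (SE, n = 3 per group, limma adjusted p = 0.488), with a 95% interval from -1.67 to 0.42. Without IP 2 it became -1.13 and passed the threshold (limma adjusted p = 0.0343), as did 1053 of 16513 tested genes as lower. The study counts NEAT1 among its ORC1-bound RNAs and displays RIP-seq enrichment and peaks of iCLIP, a method with crosslinking, at its locus. The iCLIP data were not analysed here.

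The ratio of MALAT1 to NEAT1 within a library does not depend on how libraries were scaled. It was 8.65, 9.29 and 5.73 in the inputs and 18.1, 27.6 and 7.28 in the ORC1 IPs. IPs 1 and 2 exceeded every input, whereas IP 3 fell between them. The mean log2 ratio was 2.95 ± 0.38 for inputs and 3.94 ± 0.98 for the IPs (SD, n = 3), a difference of 0.99 that did not pass (two-sided exact permutation test, p = 0.3, where 3 against 3 cannot give a p below 0.1). The difference was 0.57 without IP 2 and 1.53 without IP 3.

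Among RNAs linked to chromatin and gene regulation, TUG1 was the only one whose groups did not overlap. TUG1 (ENSG00000253352, chr22:30969245-30979395, plus strand, 3 exons in a longest transcript of 7474 nucleotides, classed as protein coding in GENCODE v44) had 2006, 1243 and 845 normalised counts in the inputs and 2086, 5716 and 2330 in the ORC1 IPs. Every ORC1 IP was above every input, although the lowest IP and the highest input were close. This separation was seen in 12.7% of all tested genes, and the opposite one, seen in 13.5%, occurred in 0 of the 8 RNAs. The log2 fold change was 1.24 ± 0.48 (SE, n = 3 per group), with an unadjusted p of 0.0235 and an adjusted p of 0.156 in limma. The thresholds of the study, which ran DESeq2 and asked for an unadjusted p under 0.05 and a log2 fold change above 1, were applied here to the limma fit, where TUG1 and 10.9% of tested genes met them.

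KCNQ1OT1 (ENSG00000269821, chr11:2597308-2700003, minus strand) was far lower, with 234, 414 and 143 normalised counts in the inputs and 201, 194 and 139 in the ORC1 IPs. Input 2 was the highest and IP 3 the lowest of the 6, and the groups overlapped. The log2 fold change was -0.45 ± 0.44 (SE, n = 3 per group, limma adjusted p = 0.598). It stood on 122 to 335 reads per library over a transcript of 91667 nucleotides, and its mean in inputs was at percentile 46.0 of tested genes. It moved to -0.05 without input 2 and to -0.82 without input 3.

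PVT1 (ENSG00000249859, chr8:127794526-128187101, plus strand), the neighbour of the MYC oncogene, had 462, 835 and 710 normalised counts in the inputs. The ORC1 IPs had 765, 1570 and 344, so IP 2 was the highest and IP 3 the lowest library. The log2 fold change was 0.20 ± 0.50 (SE, n = 3 per group, limma adjusted p = 0.863), and it was -0.05 without input 1 and -0.34 without IP 2.

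CRNDE (ENSG00000245694, chr16:54845189-54929189, minus strand), named for its differential expression in colorectal neoplasia, was scarce in these nuclei. It had 48.5, 31.5 and 52.7 normalised counts in the inputs and 28.8, 97.5 and 32.8 in the ORC1 IPs, from 20 to 168 reads. IP 2 was the highest and IP 1 the lowest, and the other 4 libraries lay between them. The log2 fold change was 0.07 ± 0.55 (SE, n = 3 per group, limma adjusted p = 0.958), and it was -0.16 without input 2 and -0.48 without IP 2. At percentile 22.5 of input means among tested genes, CRNDE was not an abundant RNA, and like KCNQ1OT1 it does not carry that description here. Its longest transcript had a GC content of 33.3%, against a median of 48.1% for tested genes.

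The RNAs with known cytoplasmic roles were also well covered in these nuclear preparations. LINC00657 had 5781, 5352 and 6185 normalised counts in the inputs and 5182, 8516 and 8902 in the ORC1 IPs. The inputs differed by 1.16-fold, the narrowest spread of the 8 RNAs, while IP 1 lay below and IPs 2 and 3 above all inputs. Its log2 fold change was 0.35 ± 0.49 (SE, n = 3 per group, limma adjusted p = 0.735), with a 95% interval from -0.72 to 1.41. Leaving out each library in turn gave 0.21 to 0.60. Of the stretches of 50 bases in LINC00657, 34.9% also occur in transcripts of other loci, OVCH1-AS1 and LINC02211 among them, and the sources used here do not say how such reads were assigned.

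OIP5-AS1 (ENSG00000247556, chr15:41283958-41322392, plus strand), whose conserved element pairs with the microRNA miR-7, had 2620, 1642 and 1795 normalised counts in the inputs. The ORC1 IPs had 811, 3877 and 1763, again with both extremes in the IPs. The log2 fold change was -0.16 ± 0.52 (SE, n = 3 per group, limma adjusted p = 0.894), and it became 0.04 without input 1 and 0.40 without IP 1. OIP5, a centromere-associated gene transcribed from the opposite strand with 759 exon bases in common with OIP5-AS1, was lower in the ORC1 IPs. OIP5 had 252, 287 and 264 normalised counts in the inputs and 67.9, 87.7 and 103 in the IPs, and its log2 fold change was -1.64 ± 0.37 (SE, n = 3 per group, limma adjusted p = 0.0352). The call for OIP5 was lost in limma without input 3 (adjusted p = 0.23), without 4 other libraries and with the replicate number as a block (adjusted p = 0.0587), and the difference between OIP5 and its antisense RNA was not tested.

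**Figure D3:**
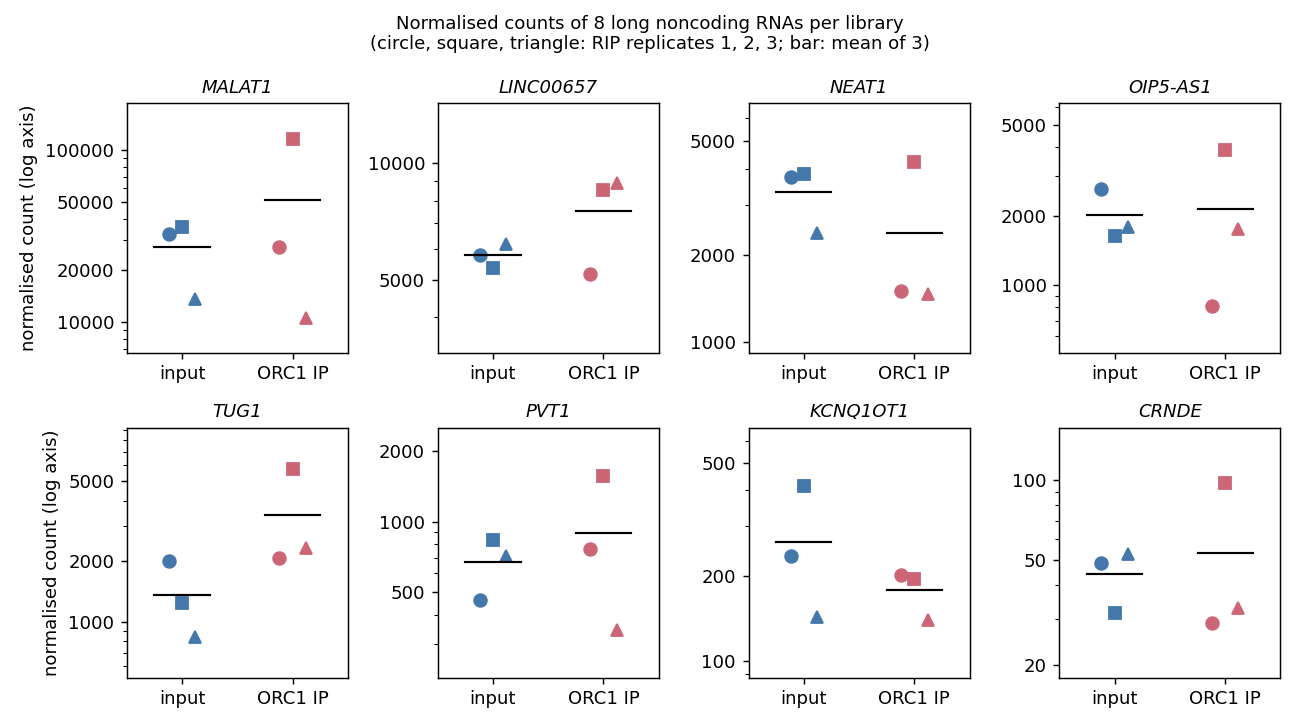
Normalised counts of each long noncoding RNA in the 3 inputs (blue) and the 3 ORC1 IPs (red), on log axes that differ between panels, where circles, squares and triangles are RIP replicates 1, 2 and 3 and horizontal bars are group means. The squares of the ORC1 IPs (IP 2) are the top point in 6 of the 8 panels, and only for TUG1 do the 2 groups not overlap.

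Levels of different RNAs were compared per kb of annotated exons in GENCODE v44. The study counted reads on gene models of hg19, so the exons counted and the exons measured need not be the same. In inputs the order began with MALAT1 at 2610 ± 1134 normalised counts per kb (SD, n = 3), followed by LINC00657 at 1069 ± 77.1, and the ranges of these 2 did not overlap each other or the next RNA. NEAT1 (146 ± 35.5), TUG1 (134 ± 58.1) and OIP5-AS1 (90.3 ± 23.5) came next, and neighbours in this trio overlapped. PVT1 stood apart at 26.3 ± 7.47. CRNDE (3.00 ± 0.760) and KCNQ1OT1 (2.85 ± 1.49) were lowest and overlapped.

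In ORC1 IPs the same pair led, with MALAT1 at 4939 ± 5466 and LINC00657 at 1395 ± 379 normalised counts per kb, now with overlapping ranges. TUG1 took the third place at 333 ± 200, and its range lay above that of NEAT1 (105 ± 69.6). OIP5-AS1 was at 96.1 ± 70.2 and PVT1 at 35.1 ± 24.5, each overlapping the RNA before it. CRNDE (3.60 ± 2.62) and KCNQ1OT1 (1.93 ± 0.367) were again lowest. For PVT1 and OIP5-AS1, whose exons are spread over many annotated isoforms, the level depends on the length used. Per kb of the longest transcript their means in inputs reached 273 and 227, above those of TUG1 (183) and NEAT1 (146). Their ranges, 189 to 341 and 185 to 295, overlapped that of TUG1 (113 to 268) but lay above NEAT1 (105 to 169). CRNDE also moved, to 6.99 in inputs, and its range (4.98 to 8.32) no longer overlapped that of KCNQ1OT1 (1.56 to 4.52).

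The 8 RNAs made up 0.260, 0.227 and 0.134% of all normalised counts in the inputs, and 0.125, 0.966 and 0.0955% in the IPs, each with a 95% Wilson half-width of 0.00382 percentage points or less, which covers counting error only. IP 2 alone exceeded the inputs, and IPs 1 and 3 lay below all of them. The mean share was 0.207 ± 0.0650% for inputs and 0.395 ± 0.494% for the IPs (SD, n = 3), a difference of 0.189 percentage points that turned to -0.0965 without IP 2. MALAT1 supplied 53.1 to 72.7% of this share in inputs and 72.1, 82.8 and 41.6% in IPs 1, 2 and 3.

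**Figure D4:**
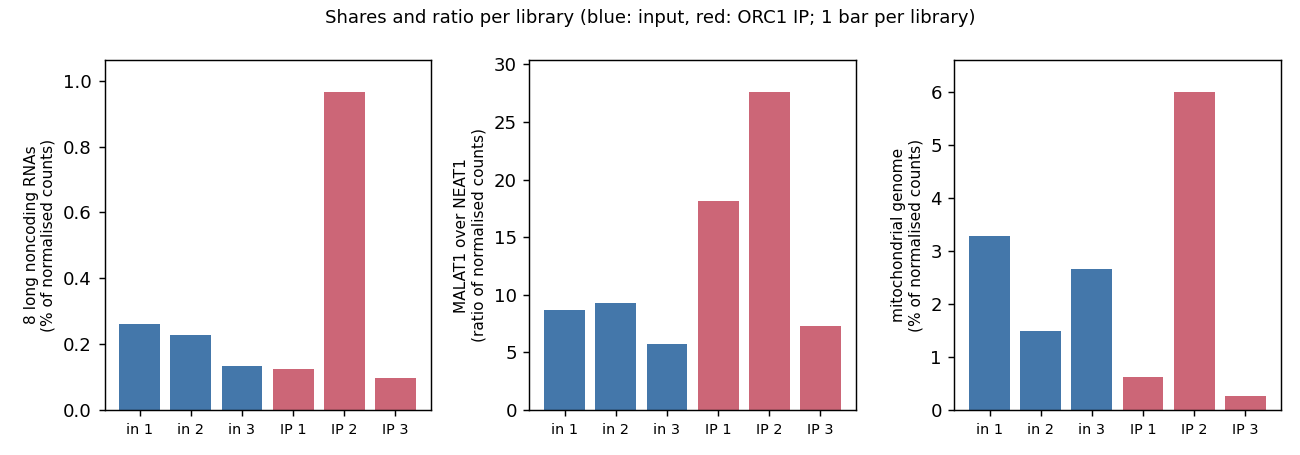
Share of normalised counts on the 8 long noncoding RNAs (left, %), ratio of MALAT1 to NEAT1 (middle) and share on the mitochondrial genome (right, %), with 1 bar per library, inputs in blue and ORC1 IPs in red. IP 2 has the highest bar in each panel, at 0.966%, 27.6 and 6.0%.

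For each of the 8, the genes with the most similar profile over the 6 libraries were sought by the root mean square difference of log2 values after each gene's own mean was removed. These profiles share the same 6 libraries, and a small value says only that 2 genes went up and down together across them. The nearest for MALAT1 was RPE65 (0.181), which peaked in IP 2 with 377 normalised counts, followed by SNHG12 (0.334), a small nucleolar RNA host gene. The nearest for TUG1 were GCFC2 (0.163) and RBM41 (0.198), the latter coding for an RNA-binding protein. For NEAT1 they were MRPL50 (0.139) and OR51B4 (0.154), a mitochondrial ribosomal protein gene and an olfactory receptor gene. KCNQ1OT1 was nearest to CASP2 (0.245) and ZCCHC4 (0.249), and PVT1 to ALKBH6 (0.139) and RPS26 (0.151). OIP5-AS1 was nearest to BLOC1S2 (0.153) and SLC35G1 (0.165), LINC00657 to ENTPD2 (0.0938) and GRTP1 (0.101), and CRNDE to ZNF76 (0.0744) and PHF7 (0.0944). Among the 8 themselves the closest pair was OIP5-AS1 and CRNDE (0.361). This value cannot be set against those of the nearest genes, which were picked from at least 11405 genes for each RNA.

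Of 37 other long noncoding RNAs tested, 1 was higher and 1 lower in limma, beside 2.28% and 1.42% of all tested genes. At an unadjusted p under 0.05 there were 9, beside 21.6% of all tested genes, and the median log2 fold change was -0.07. The one that fell was TERC, the RNA template of telomerase. It had 3302, 5637 and 2627 normalised counts in the inputs and 440, 927 and 113 in the ORC1 IPs, with every IP below every input, as in 13.5% of tested genes. Its log2 fold change was -3.34 ± 0.62 (SE, n = 3 per group, limma adjusted p = 0.0174). The one that rose was LINC00342, a low RNA whose mean went from 6.70 ± 5.73 normalised counts in the inputs to 62.7 ± 47.3 in the IPs (SD, n = 3). The log2 difference for LINC00342 was 3.15 ± 0.76 (SE, limma adjusted p = 0.0434). Without input 3 neither passed, at limma adjusted p = 0.0813 for TERC and 0.261 for LINC00342, and without IP 3 they were at 0.0582 and 0.105. TERC also failed without input 2 (0.0575) and LINC00342 without input 1 (0.0735). Both calls were also lost in limma without the trend, at adjusted p = 0.0528 for TERC and 0.0639 for LINC00342.

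The mRNAs of proteins that work with these RNAs were compared as lists. Of the 22 genes for paraspeckle proteins, the partners of NEAT1, 0 passed in limma (3 at an unadjusted p under 0.05, beside 21.6% of all tested genes) and the median log2 fold change was 0.57. Their summed counts were 77564 to 101291 in inputs and 261730, 59157 and 172814 in IPs 1, 2 and 3, so that IP 2 lay below every input. The smallest p was that of ZC3H6, at 1.31 ± 0.42 (SE, n = 3 per group, limma adjusted p = 0.0967). Of the 22 genes for nuclear speckle proteins, the compartment of MALAT1, 2 rose and 0 fell, beside 2.28% and 1.42% of all tested genes, with a median of 1.28. At an unadjusted p under 0.05 in limma there were 8 of these 22 genes, beside 21.6% of all tested genes. Their summed counts were 95159 to 159568 in inputs and 519761, 111170 and 362532 in IPs 1, 2 and 3, so that IP 2 lay within the inputs. The 2 were CLK1, a kinase of SR splicing factors, at 1.63 ± 0.37 (SE, limma adjusted p = 0.0357), and PRPF4B, a kinase of the spliceosome, at 2.29 ± 0.50 (SE, limma adjusted p = 0.0302). Neither CLK1 nor PRPF4B passed without input 2, input 3, IP 1 or IP 3, with limma adjusted p of up to 0.258 and 0.266. Without IP 2, ZC3H6 passed as higher (limma adjusted p = 0.0316), as did 1965 of the 16513 tested genes.

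For LINC00657, 0 of 9 partner genes passed in limma (3 at an unadjusted p under 0.05, beside 21.6% of all tested genes), with a median of -0.09. The smallest p belonged to CDC5L, a spliceosome component, at 1.90 ± 0.70 (SE, n = 3 per group, limma adjusted p = 0.136). Of 11 genes for subunits of PRC2, the histone methyltransferase complex with which several long noncoding RNAs have been linked, 1 rose and 0 fell, with a median of 0.41. Over all tested genes 2.28% were higher and 1.42% lower. At an unadjusted p under 0.05 in limma there were 4 of the 11, beside 21.6% of all tested genes. The riser was EZH1, a catalytic subunit, at 1.53 ± 0.35 (SE, limma adjusted p = 0.0352). EZH1 did not pass without input 2, input 3, IP 1 or IP 3 (limma adjusted p of up to 0.264). CDC5L passed as higher without IP 2 (limma adjusted p = 0.000843), as did 1965 of the 16513 tested genes.

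Of 8 genes of the imprinted domain of KCNQ1OT1, 0 passed in limma (0 at an unadjusted p under 0.05), and the median was -0.47. KCNQ1, in which the KCNQ1OT1 gene lies, was at -0.29, and the smallest p was that of TSSC4 at -0.80 ± 0.38 (SE, n = 3 per group, limma adjusted p = 0.241). Among 17 genes next to the 8 loci, OIP5 was the only one that passed, and the median was -0.07. Over all tested genes 2.28% passed as higher and 1.42% as lower. At an unadjusted p under 0.05 in limma there were 4 of the 17, beside 21.6% of all tested genes. The 15 genes of the mitochondrial genome had 0 that passed (0 at an unadjusted p under 0.05) and a median of -0.07, with the smallest p at MT-RNR2, -1.74 ± 1.93 (SE, n = 3 per group, limma adjusted p = 0.651). Of 7 epithelial markers 0 passed (0 at an unadjusted p under 0.05), with a median of -0.55 and the smallest p at CLDN4, -0.64 ± 0.49 (SE, n = 3 per group, limma adjusted p = 0.484). Of 3 tested markers of other cell types, 0 passed (1 at an unadjusted p under 0.05), with COL1A1 at 1.27 ± 0.39 (SE, limma adjusted p = 0.0854), VWF at 0.03 and DES at -0.43. Without IP 2, MT-RNR2 passed as lower (limma adjusted p = 0.0054) and COL1A1 as higher (limma adjusted p = 0.0276). In that fit 1053 of the 16513 tested genes passed as lower and 1965 as higher.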

How the data were processed

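ORC1 was immunoprecipitated without crosslinking from sonicated HCT116 nuclei, and a stranded kit was used for the libraries, which were depleted of ribosomal RNA. Processing by the authors comprised trimming (Trimmomatic), alignment to hg19 (STAR), counting per Ensembl gene (featureCounts) and division of the counts by DESeq2 size factors. The deposited value per library is therefore a normalised signal, and whole reads were recovered for 100% of values within a tolerance of 0.001. The deposited table also holds the authors' pooled mean, fold changes, standard errors, test statistics and p-values, which were not used. Strand use and the handling of reads that match several genes are not given in the sources used here.

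The 8 RNAs and all gene lists were chosen with earlier results of these data known. The 16513 genes whose normalised counts averaged 10 or more across all libraries were tested with limma 3.58.1 (R 4.3.3, intensity trend, log2(normalised count + 1), no block, Benjamini-Hochberg adjustment). Fold changes on this scale understate changes of low genes. Alternatives were edgeR 4.0.16 and DESeq2 1.42.0 on recovered reads, other pseudocounts, filters and scalings, limma without the trend, a correction for GC content and length, a replicate block and leaving out each library. The limma script was tested on simulated reads with the same dispersion for every gene, which does not bear on the spread between these libraries. The genes named were all 8 RNAs, in each other list the genes past the threshold or, with none, the one with the smallest p, and for each RNA the 2 genes with the nearest profile among those with a mean of at least 100. EPCAM, KRT8, KRT18, KRT19, CLDN3, KCNQ1, VWF, DES, the low markers CD14, GFAP and ALB, and the genes beside a motif count or shared stretch were named outside this rule after their values were seen.

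The labels give an input and an ORC1 IP the same RIP replicate number. Over tested genes, the residuals of an input and the IP with its number correlated at -0.322, -0.240 and 0.215 for replicates 1, 2 and 3, and libraries were paired by number only in the fits with the replicate block. Chi-square values between libraries of a group were 49.5 to 676 per degree of freedom, so that none repeated another. The labels do not say that replicates were separate cultures, and p-values rest on the spread between these libraries. In limma the SEs and p-values are moderated, so the spread of each gene is combined with that of other genes at a similar level. LINC00657 had a residual SD of 0.315 and an SE of 0.49, and NEAT1 had 0.674 and 0.48. Transcript sequences and coordinates came from GENCODE v44 on GRCh38, matched by Ensembl identifier for 97.3% of tested genes, and primers from the oligonucleotide list of the study. 1 item is not reported here.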

Additional observations from a re-analysis of the deposited data

How the results depend on the processing

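TUG1 stayed positive (0.69 to 1.56, adjusted p 0.0718 to 0.575) and KCNQ1OT1 negative (-1.82 to -0.05) in 19 of 19 alternatives, and the cause of the changes below was not tested. The correction for GC content and length turned MALAT1 to -0.36, LINC00657 to -0.075 and CRNDE to -0.44 on the log2 scale, and moved NEAT1 to -1.59, OIP5-AS1 to -0.86 and KCNQ1OT1 to -1.82 (adjusted p 0.0713). Scaling by total count, which moved the median of all genes to -0.19, turned PVT1 to -0.018 and CRNDE to -0.14, and OIP5-AS1 was 0.12 in edgeR and 0.092 in DESeq2, where MALAT1 was 0.97 and 0.93. Leaving out each library gave ranges of -0.56 to 1.17 for MALAT1, -1.13 to -0.37 for NEAT1, -0.34 to 0.75 for PVT1, -0.73 to 0.40 for OIP5-AS1 and -0.48 to 0.38 for CRNDE, and 0 to 1 of the 8 RNAs passed as lower. It gave -0.0965 to 0.339 percentage points for the difference in the share of counts. CRNDE had no value under the filter at a mean of 50.

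Over all genes, 376 were higher and 234 lower. These counts became 87 and 96 with total count scaling, 143 and 96 in limma without the trend, 1266 and 718 in DESeq2, and 135 and 72 with the GC and length correction. Leaving out 1 library gave 6 to 1965 higher and 23 to 1053 lower genes. By library, the counts were 48 and 39 without input 2, 6 and 23 without input 3, 196 and 119 without IP 1, 1965 and 1053 without IP 2, and 24 and 23 without IP 3. With the replicate number as a block, 433 were higher and 191 lower in limma and 426 and 184 in edgeR, TUG1 had an adjusted p of 0.187 and 0.214, and no call among the 8 RNAs changed, while that for OIP5 was lost (0.0587 and 0.0697). Per kb of the longest transcript, inputs held 273 normalised counts of PVT1, 227 of OIP5-AS1 and 6.99 of CRNDE. Among the named genes of other lists, limma without the trend ended the calls of TERC (adjusted p 0.0528), LINC00342 (0.0639), CLK1 (0.0763), PRPF4B (0.0578), EZH1 (0.0746) and OIP5 (0.0589). The GC and length correction ended those of TERC (0.0517), LINC00342 (0.076), PRPF4B (0.0682), EZH1 (0.0571) and OIP5 (0.058), and total count scaling those of LINC00342 (0.114), CLK1 (0.174), EZH1 (0.159) and OIP5 (0.103). CRNDE and KCNQ1OT1 rested on 20 to 335 reads per library, and the part of depth in their errors was not tested.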
